A study of Homo sapiens with 12 samples.

Results

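Olfactory receptor genes were examined for 2 DNA marks in HL-60 cells, before and after differentiation. A gene counted as a receptor gene when its symbol was OR, a family number, a subfamily letter or letters and a member number, without the closing P of a pseudogene. It entered when an enriched region overlapped its body or lay no more than 5 kb upstream of it. The table of 5-hydroxymethylcytosine (5hmC) held 169 such genes with 267 regions, among 20404 genes and 327931 regions in all. The table of 5-methylcytosine (5mC) held 39 genes with 50 regions, among 12637 genes and 65535 regions. Together these were 183 genes, and 25 of them had regions of both marks. All 183 symbols matched RefSeq symbols, 182 of them as protein-coding genes.

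Olfactory receptors are G protein-coupled receptors of the sensory neurons of the nose. They form the largest gene family of the human genome and lie in dense clusters on many chromosomes. Each olfactory neuron transcribes a single receptor allele, while the other receptor genes are held in compact heterochromatin, and outside the nose most members are silent. Class I receptors (families OR51 to OR56), whose relatives in fish bind water-soluble odorants, sit in a single cluster on the short arm of chromosome 11 around the beta-globin genes. Class II receptors make up the rest. Methylation of cytosine marks much of the genome at CpG sites, and 5hmC is made from it by TET enzymes as an oxidised form. In blood cells these receptor genes serve as a large family of mostly untranscribed, CpG-poor loci.

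HL-60 is an established human myeloid leukemia line. The undifferentiated group was grown without dimethyl sulfoxide (DMSO) and gated as viable and CD11b-negative. The differentiated group received 1.5% DMSO (211 mM) for 7 days and was gated as viable and CD11b-positive, so each state is a sorted fraction of 1 cell line. Each state had 3 biological replicates, and the DNA of each was divided between an anti-5mC capture (MeDIP-seq) and an anti-5hmC capture (hMeDIP-seq), which gave 12 libraries.

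Values are read counts in enriched regions, summed per gene and given as CPM, a count scaled to the library's gene-assigned total, after TMM scaling, which sets the bulk of genes equal between libraries. Region totals ran from 13010267 to 33693880 counts per 5hmC library and from 6076100 to 9670011 listed counts per 5mC library. Receptor genes held little of this: a gene's median count was 40 in 5hmC, against 210.5 over all genes, because its regions covered a median of 800 bases, against 4000. Per kilobase of region the level was alike, with a median of 5.77 CPM per kb for receptor genes and 5.55 for all genes. The smaller counts widened the error, and the median standard error (SE) of a log2 fold change was 0.199 for receptor genes and 0.0943 for all genes. Capture reports recovered DNA, not a fraction of modified cytosines, and it rises with the copies of a locus in the cell. No input library was used here, so a change of mark and a change of copy number cannot be told apart. RNA was not analysed here, and no value bears on whether a receptor is transcribed.

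The bases in front of 6 receptor genes are shown because an enriched region that differed between the states lay at or within 3 bases of the start of each. They are the 250 bases upstream of the start in RefSeq (GRCh38.p14), 5′ to 3′ on the gene's strand, with each CpG in capitals. The region distances come from the authors' annotation on hg19, whose start can differ from RefSeq's. OR51S1, OR2B6 and OR6V1 rose in 5hmC, OR51A7 and OR1K1 fell in 5hmC, and OR1A1 rose in 5mC.
OR51S1: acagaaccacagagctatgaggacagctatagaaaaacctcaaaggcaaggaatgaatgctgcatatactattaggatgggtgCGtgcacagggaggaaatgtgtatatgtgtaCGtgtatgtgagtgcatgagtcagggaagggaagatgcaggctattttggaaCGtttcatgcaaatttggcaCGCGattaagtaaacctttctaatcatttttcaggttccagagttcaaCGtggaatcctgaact
OR2B6: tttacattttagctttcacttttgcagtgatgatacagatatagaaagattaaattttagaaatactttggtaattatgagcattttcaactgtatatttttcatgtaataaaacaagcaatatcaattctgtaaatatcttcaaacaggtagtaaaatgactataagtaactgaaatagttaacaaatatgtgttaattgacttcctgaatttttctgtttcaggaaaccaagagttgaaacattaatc
OR6V1: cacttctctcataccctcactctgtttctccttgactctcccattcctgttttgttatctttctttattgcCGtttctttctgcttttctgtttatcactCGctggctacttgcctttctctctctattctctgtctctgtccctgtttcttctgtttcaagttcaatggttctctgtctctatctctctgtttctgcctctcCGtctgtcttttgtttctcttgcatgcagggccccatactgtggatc
OR51A7: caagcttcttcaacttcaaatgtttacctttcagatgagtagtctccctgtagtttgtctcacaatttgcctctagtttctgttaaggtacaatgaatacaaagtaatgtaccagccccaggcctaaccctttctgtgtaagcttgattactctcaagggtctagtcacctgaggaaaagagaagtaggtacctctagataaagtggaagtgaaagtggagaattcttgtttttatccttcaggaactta
OR1K1: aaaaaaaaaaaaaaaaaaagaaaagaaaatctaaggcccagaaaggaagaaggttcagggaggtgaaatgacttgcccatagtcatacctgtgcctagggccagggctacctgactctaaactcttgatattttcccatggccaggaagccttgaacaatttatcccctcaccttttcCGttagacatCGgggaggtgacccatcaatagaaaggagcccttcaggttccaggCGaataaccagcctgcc
OR1A1: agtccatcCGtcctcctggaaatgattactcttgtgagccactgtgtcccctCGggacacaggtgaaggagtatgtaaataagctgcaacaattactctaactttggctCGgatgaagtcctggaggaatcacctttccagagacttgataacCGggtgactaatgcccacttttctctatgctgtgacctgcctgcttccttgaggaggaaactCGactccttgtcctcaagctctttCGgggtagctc
OR51S1 and OR1A1 hold 6 CpG each, OR6V1 and OR1K1 hold 3 each, and OR2B6 and OR51A7 hold none. The family as a whole was similarly poor in the bases that carry these marks. In the window from 250 bases before to 50 after the start, 136 members with a sequence had a median of 1 CpG (range 0 to 24), against 14 over 27305 genes. No CpG was present in 18.4% of the members' windows and in 4.16% of all windows. The motif TAATTA, the core that LIM homeodomain factors such as LHX2 recognise, occurred on either strand in 22.1% of members and 4.98% of all genes, and TATAAA in 30.1% and 12.0%. Both motifs are built from A and T, and the median GC content was 40.0% in members and 58.3% in all genes. A match describes letters and says nothing about binding.

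In 5hmC the receptor genes leaned upward. Differentiated cells carried more 5hmC at 55 of the 169 genes and less at 18, and 96 did not pass (adjusted p under 0.05, edgeR's quasi-likelihood test, Benjamini-Hochberg over all genes tested, n = 3 per state). That is 32.5% higher and 10.7% lower. Over all genes 51.6% passed, 25.7% higher and 25.8% lower. The median log2 fold change, differentiated over undifferentiated, was 0.16 for receptor genes and 0.01 for all genes, and single genes ran from −1.41 (OR51A7) to 1.56 (OR4K1). The 3 libraries of each state did not overlap for 86 receptor genes (50.9%), against 57.1% of all genes. In 60 of these the differentiated libraries were above the others and in 26 below.

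Most members are small targets. The 120 receptor genes with a single region had 39 higher (32.5%) and 12 lower (10.0%), with a median of 0.27. All 3245 genes with a single region had 26.1% higher and 20.8% lower, with a median of 0.08. These directions depend on the scaling. Under plain library totals the median of all genes was −0.19 and that of receptor genes −0.03, with 36 higher and 39 lower. TMM factors from the 25% most abundant regions (TMM on strong regions) gave −0.19 and −0.04, with 36 higher and 43 lower. Such rescaling shifts all genes by nearly the same amount. The gap between those medians therefore had to stay nearly the same and is no separate support.

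The class I genes on chromosome 11 leaned further upward than the class II genes. All 31 class I genes with 5hmC regions lay in 1 cluster (hg19 chr11:4466601-6938600), together with the class II genes OR10A4 and OR2D3. Of the 31 genes, 17 rose and 4 fell (54.8% and 12.9%), with a median log2 fold change of 0.56. Of 138 class II genes, 38 rose and 14 fell (27.5% and 10.1%), with a median of 0.07. By family, 9 of 13 OR52 genes rose and 1 fell (median 0.64), while 6 of 15 OR51 genes rose and 2 fell (median 0.22). No test of the difference between the classes was made. Plain library totals lowered both classes along with all genes: class I had 15 higher and 6 lower (median 0.38) and class II 21 higher and 33 lower (median −0.12), beside −0.19 for all genes. Without undifferentiated replicate 1, 14 class I genes were higher and 2 lower. Without differentiated replicate 1, 16 were higher and 2 lower. Without differentiated replicate 2, 23 class II genes were lower.

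OR52B6 (2 regions, chr11:5596601-5599200) is a class I receptor gene with both regions upstream. Its 5hmC level was 8.09, 8.22 and 7.74 CPM in the undifferentiated and 14.4, 14.0 and 14.6 CPM in the differentiated libraries. The states were far apart and tight within themselves, and the gene rose (0.84, SE 0.113, adjusted p = 9.09e-05). OR52E6 (chr11:5867001-5867600) had 2.62, 1.60 and 1.44 CPM against 5.34, 4.47 and 5.30. It was the largest rise of the class (1.32, SE 0.227, adjusted p = 0.000447). OR51T1 (chr11:4901401-4902600) rose from 3.81, 3.95 and 3.02 CPM to 6.79, 9.71 and 7.41. Its differentiated libraries were all above the undifferentiated ones (log2 fold change 1.07, SE 0.181).

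OR51B5, known in other leukemia cells as a receptor for an alcohol odorant, has a long gene model (11 regions, chr11:5384201-5513600) that spans other receptor genes. Its summed level was 35.22, 35.02 and 30.44 CPM before and 46.5, 48.6 and 50.0 CPM after differentiation, without overlap (log2 fold change 0.52, SE 0.0699, adjusted p = 9.52e-05). Of its 11 regions 7 rose and 0 fell, from −0.51 to 1.37 on the log2 scale. The regions it shares with OR51Q1 and OR51I2 were not among those that rose, and the one shared with OR52D1 was.

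Neighbouring genes differed in direction. OR51A7 (chr11:4928201-4928600), with 3.45, 2.35 and 2.76 CPM before and 1.21, 1.55 and 0.884 CPM after, showed the largest fall of all receptor genes (−1.41, SE 0.28, adjusted p = 0.0012). It lies between OR51T1 and OR51G1, and both of these rose. OR52N4 (−0.95), OR51B2 (−0.75) and OR56A3 (−0.58) also fell. OR51E1 and OR51E2 are receptors of short-chain fatty acids first known from prostate tissue. OR51E1 had 9.46, 11.5 and 11.2 CPM before and 12.7, 8.55 and 12.8 CPM after, which overlap (0.17, adjusted p = 0.332). OR51E2 had 3.45, 2.56 and 3.41 CPM before and 3.76, 4.66 and 4.15 CPM after. These did not overlap, but the difference did not pass (0.38, SE 0.196, adjusted p = 0.12).

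**Figure D1:**
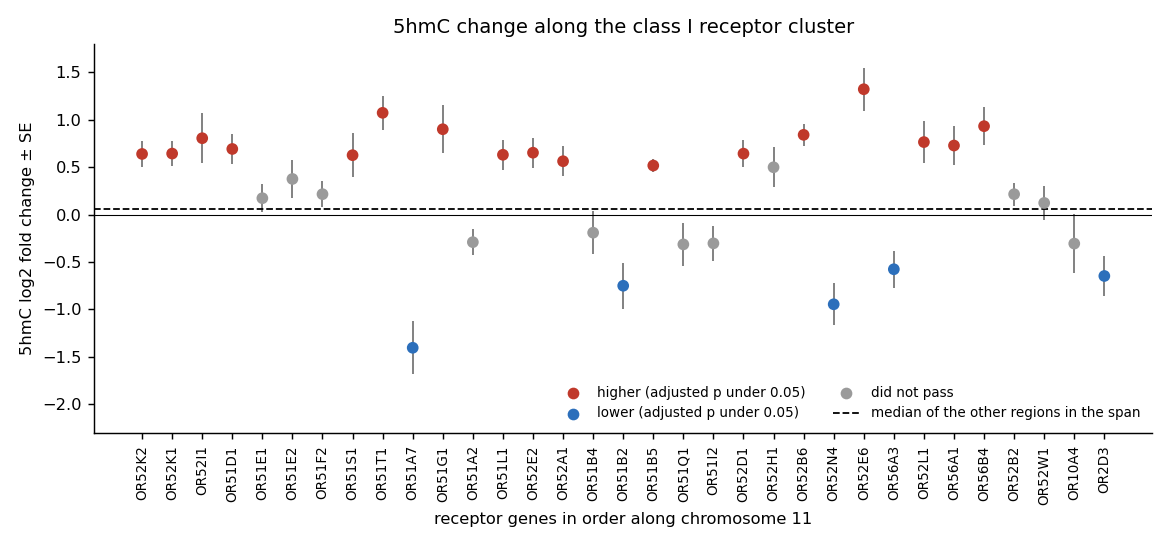
5hmC log2 fold change (differentiated over undifferentiated) with its SE for the 33 receptor genes of the first chromosome 11 cluster, in their order along the chromosome, on the TMM scale. Genes that rose (17) stand beside genes that fell (5), and the dashed line marks the median of the other regions in the span (0.06).

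Other loci lie between these receptors. Of 31 genes of other kinds with a region in the span, 11 rose and 5 fell (median 0.19), where 25.7% of all genes rose and 25.8% fell. Of 244 regions there that belong to no receptor gene, 30.3% rose and 24.2% fell, with a median of 0.06. These region shares are near those of all 5hmC regions, where 50.3% passed, 27% higher and 23.3% lower. The globin genes lie inside the cluster, and 2 of 4 with regions rose: HBB (adult beta-globin, 1.14, SE 0.263) and HBD (delta-globin, 0.84, SE 0.182). HBB had 2.14, 2.35 and 1.57 CPM before and 4.85, 2.33 and 5.37 CPM after, which overlap. HBE1 (embryonic, 0.16, and −0.04 with plain library totals) and HBG2 (fetal, 0.27) did not pass. Summed over its receptor regions, the cluster had 190.5, 186.3 and 186.7 CPM before and 242.4, 250.6 and 249.5 CPM after, or 187.8 ± 2.33 against 247.5 ± 4.45 (SD, n = 3). The log2 ratio of these means was 0.40, and 0.14 for the other regions of the span.

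Receptor clusters, defined as runs of receptor regions less than 1 Mb apart with at least 5 genes, numbered 11 and held 126 of the 169 genes. The differentiated libraries lay above the undifferentiated ones in summed 5hmC for 7 of them, with no p given for a sum over members. After the class I cluster, the highest log2 ratios were found on chromosome 9 (125242801 to 125562400), where the sum went from 65.9 ± 1.05 to 84.3 ± 2.86 CPM (0.35), and on chromosome 7 (142748601 to 144016000), from 15.1 ± 1.08 to 19.03 ± 0.601 CPM (0.33), with 1 of 4 genes higher. Joined over at most 0.5 Mb, the chromosome 7 cluster kept the 3 genes that had not passed, and its sums overlapped (11.8, 12.9 and 9.71 CPM before, 14.1, 11.1 and 12.4 CPM after, log2 ratio 0.12). The chromosome 9 cluster had 4 of 12 genes higher and 1 lower. For the other regions of the spans joined over 1 Mb, the log2 ratio was 0.28 on chromosome 9 and 0.25 on chromosome 7. The distal cluster of chromosome 1 (247614401 to 248805800) had 130.3, 132.6 and 133.4 CPM before and 157.1, 154.2 and 151.4 CPM after, a log2 ratio of 0.22, with 7 of 17 genes higher and 2 lower (4 higher when replicate 1 of either state was left out). OR2T1 and OR2L13 hold most of that sum. The receptor genes there had a median of 0.35, the 3 other genes −0.07 and the other regions, on their own scaling, 0.16. Summed in the same way as the receptor regions, the other regions of that span also had a log2 ratio of 0.22.

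Chromosome 11 was not uniform. The second cluster (55427601 to 56515000) went from 106.3 ± 3.69 to 122.8 ± 3.91 CPM, with 4 of 13 genes higher and 1 lower, though under plain library totals its ratio was −0.00155. The third (59129201 to 59484200) had 25.9, 28.8 and 24.0 CPM before and 23.5, 26.2 and 24.6 CPM after, and 0 of its 7 genes passed edgeR's quasi-likelihood test or DESeq2's (3 at an unadjusted p under 0.05 in edgeR). The other regions of that span fell more often (44.2%) than they rose (11.6%). The most distal (123806601 to 124418800) had overlapping sums of 31.9 ± 2.27 and 32.0 ± 3.95 CPM, with 1 of 7 genes higher and 2 lower. On chromosome 14 (19373001 to 22134200) the sums were 61.2 ± 4.92 and 64.01 ± 0.351 CPM, 3 of 12 genes rose and 1 fell (5 rose when replicate 2 of either state was left out), and the gene median was −0.18. The 43 other genes of that span had a median of −0.13, with 14 higher and 15 lower. Joined over at most 0.5 Mb, the cluster kept 9 genes (20182201 to 21115800), with 3 higher and 1 lower, a median of 0.52 and sums of 43.5 ± 3.82 and 49.5 ± 0.892 CPM that did not overlap. The 14 other genes of that shorter span had a median of −0.39. Of the 2 clusters on chromosome 19, the one from 14913801 had 101.96, 101.97 and 95.5 CPM before and 118.3, 125.3 and 115.5 CPM after (log2 ratio 0.26), with 2 of 9 genes higher.

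**Figure D2:**
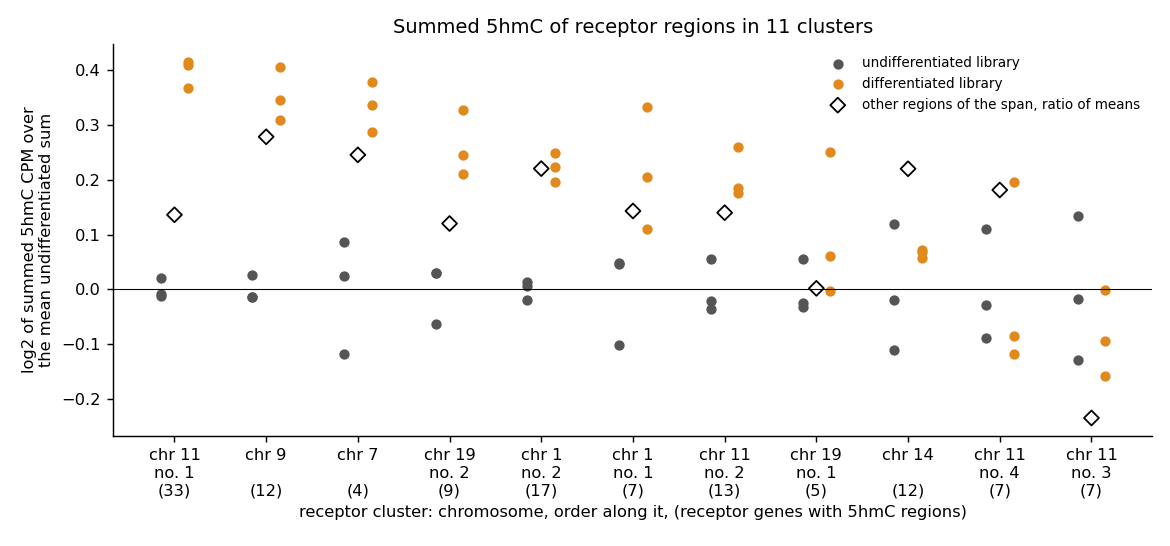
Summed 5hmC of the receptor regions in each of 11 clusters, 1 point per library, as log2 over the mean of the undifferentiated libraries, ordered by the ratio; diamonds give the other regions of the same span. The first chromosome 11 cluster is highest (0.40), and the states overlap in the 2 lowest chromosome 11 clusters, on chromosome 14 and in the cluster of chromosome 19 from 9199801; with plain library totals these 4 and the second chromosome 11 cluster are below 0.

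By chromosome, the receptor genes stood above the other genes on chromosome 1 (24 genes, 10 higher and 2 lower, median 0.37, other genes −0.02; 6 higher when replicate 1 of either state was left out) and chromosome 11 (69 genes, 24 higher and 9 lower, median 0.23, other genes 0.03). On chromosome 9 the figures were 18 genes, 6 higher and 3 lower, with a median of 0.26 against 0.05. Chromosome 19 had 3 of 14 genes higher and 1 lower, with a median of −0.01 against −0.03. All 3 receptor genes of chromosome 15 rose: OR4F6 (0.93), OR4M2 (0.80) and OR4N4 (0.73). Their summed level was 9.04, 11.4 and 8.27 CPM before and 16.1, 16.7 and 17.1 CPM after. The share of RefSeq protein-coding receptor genes that had a 5hmC region at all was 18 of 25 on chromosome 9, 14 of 20 on chromosome 19, 69 of 171 on chromosome 11 and 24 of 61 on chromosome 1. Over the genome it was 43.1% (168 of 390), against 78.8% of all protein-coding symbols. A longer gene body offers more room for a region, and these shares were not matched for gene length.

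**Figure D3:**
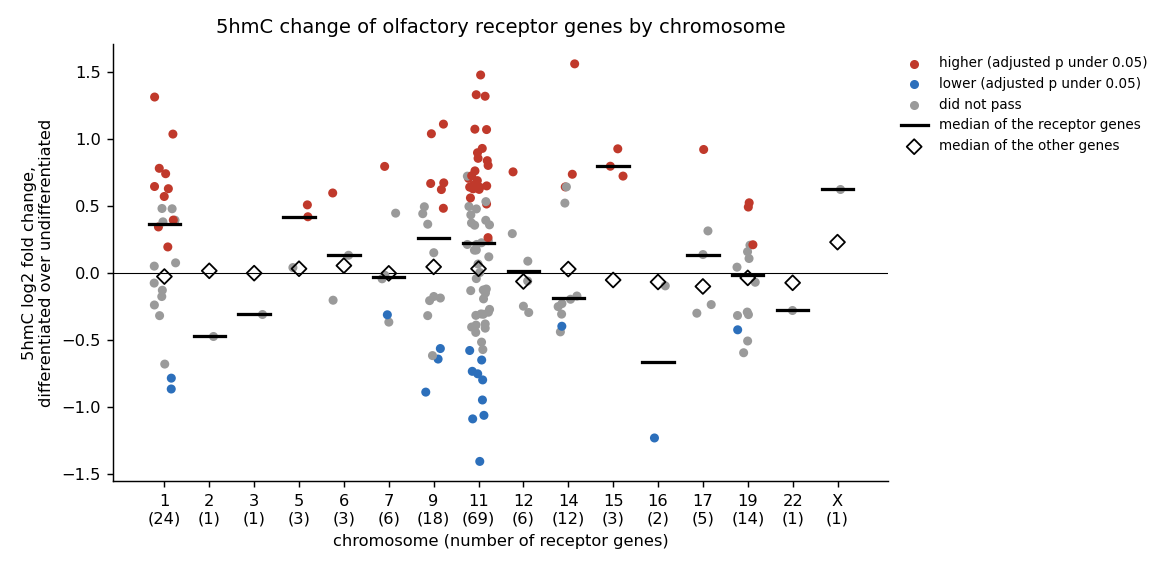
5hmC log2 fold change of each of 169 receptor genes by chromosome, on the TMM scale, coloured by call; bars give the receptor median and diamonds the median of the other genes of that chromosome. Among chromosomes with at least 12 receptor genes, receptor medians lie above those of the other genes on 1, 9, 11 and 19 and below on 14; with plain library totals the receptor medians of chromosomes 9 and 11 are 0.07 and 0.04.

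Outside class I, the largest rise was at OR4K1 on chromosome 14 (chr14:20400401-20400800), a class II gene. It had 2.02, 2.14 and 1.57 CPM in undifferentiated and 6.19, 5.83 and 5.51 CPM in differentiated libraries, 2.96-fold higher (log2 fold change 1.56, SE 0.194, adjusted p = 5.44e-05). The median of its cluster was −0.18, and 0.52 where regions were joined over at most 0.5 Mb. OR4C6 (chr11:55427601-55427800) had 1.13, 1.07 and 0.262 CPM against 2.55, 2.72 and 2.52, where the lowest library held 2 counts (1.48, SE 0.318). OR10A3 (chr11:7961801-7962200) rose from 1.43, 2.67 and 1.44 to 4.49, 5.44 and 4.15 CPM (1.33, SE 0.25). All differentiated libraries of these genes were above the undifferentiated ones. OR1J2 in the chromosome 9 cluster rose from 4.16, 4.70 and 4.33 to 9.58, 10.9 and 8.70 CPM (1.11, SE 0.153, adjusted p = 0.000106). OR13C3, also on chromosome 9 (107301401 to 107302000), rose from 4.76, 5.45 and 3.67 to 9.46, 11.7 and 8.90 CPM (1.04, SE 0.168). The remaining large rises were OR2L5 (1.32), OR5M9 (1.08), whose region also lies in the OR8U8 model, and OR1C1 (1.04).

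The largest falls among class II genes lay apart from each other. OR1F1 on chromosome 16 (3249001 to 3249400) fell from 3.75, 3.95 and 2.89 to 0.849, 1.94 and 1.77 CPM (−1.23, SE 0.266, adjusted p = 0.002). OR5T3 (chr11:56016201-56016600) went from 4.10, 3.84 and 2.89 to 1.94, 1.75 and 1.63 CPM (−1.09, SE 0.229). OR6T1 (chr11:123817001-123817600) went from 3.63, 2.35 and 3.41 to 1.58, 1.36 and 1.56 CPM (−1.06, SE 0.25). In each of these the highest differentiated library was below the lowest undifferentiated one. OR1K1 (−0.89), OR2G6 (−0.86), OR6Q1 (−0.80) and OR2T6 (−0.78) followed. OR2AT4, the receptor of synthetic sandalwood odorants known from skin keratinocytes, did not pass. It had 5.77, 4.38 and 7.08 CPM before and 4.73, 1.94 and 4.35 CPM after, which overlap (−0.51, SE 0.238, adjusted p = 0.0831).

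**Figure D4:**
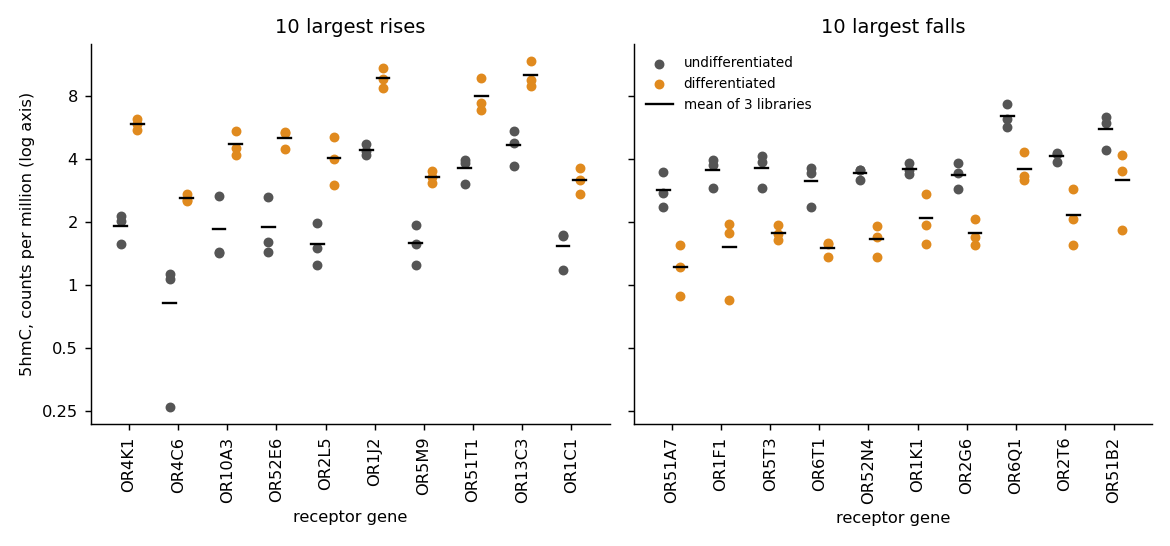
5hmC level in CPM (log axis) in each of the 3 undifferentiated and 3 differentiated libraries for the 10 receptor genes with the largest rises and the 10 with the largest falls among those that passed; lines are means. In all 20 genes the states do not overlap, which the choice of large changes favours (50.9% of all receptor genes and 57.1% of all genes do not). The levels run from 0.262 CPM (OR4C6) to 11.7 CPM (OR13C3).

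The highest summed 5hmC belonged to gene models with many regions and to 1 short locus. OR8U8 (25 regions, chr11:56150401-56508600), whose model spans other receptor genes, had 73.1, 80.3 and 75.8 CPM before and 89.9, 97.5 and 89.1 CPM after (0.27, SE 0.0584). Of its 25 regions 10 rose and 5 fell. OR9Q1 (13 regions) had 45.5, 42.6 and 49.5 CPM before and 40.4, 46.0 and 39.3 CPM after, which overlap (−0.15, adjusted p = 0.11). OR2L13 (10 regions) rose from 36.9, 39.3 and 39.5 to 43.1, 48.8 and 42.0 CPM (0.20), a rise that is at −0.00247 with TMM on strong regions. Of its 10 regions 5 rose and 2 fell. Without OR8U8, OR9Q1, OR51B5 and OR2L13, an alternative chosen after seeing the data, 52 receptor genes were higher and 18 lower. OR10H1 on chromosome 19 rose from 41.3, 40.0 and 41.2 to 57.3, 67.8 and 51.9 CPM (0.49, SE 0.0823). That rise came from the region 4065 bases upstream of its start (0.57), while the one at its start did not pass (0.20).

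OR2T1 had the densest signal of any member. A single 200-base 5hmC region (chr1:248567401-248567600), 1697 bases upstream of the start, held 41.8, 42.3 and 44.3 CPM before and 59.4, 51.1 and 52.1 CPM after (0.35, SE 0.0681, adjusted p = 0.00109). Per kilobase its mean was 242.5 CPM, against a receptor median of 5.77. Taken as a region, where spread is estimated over all regions, the same counts missed the threshold (adjusted p = 0.0519).

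Taken region by region, 88 of the 267 5hmC regions of receptor genes rose (33.0%) and 42 fell (15.7%), where 27% of all 5hmC regions rose and 23.3% fell. The median log2 fold change was 0.15, against −0.04 over all regions. Most lay upstream of a gene: 180 were upstream only, with 57 higher and 30 lower (median 0.01). The 58 body regions of the 4 long gene models had 24 higher and 11 lower (median 0.18). The 29 other body regions had 7 higher and 1 lower (median 0.41). Receptor regions were far from CpG islands, at a median of 159157 bases against 38163 for all 5hmC regions. Only 1.50% overlapped an island (1.73% of all regions), and 3.37% lay within 2 kb of one (7.39%). In all, 12 regions counted for more than 1 receptor gene and 4 also for a gene of another kind. Without undifferentiated replicate 1 or differentiated replicate 3 the count of regions that fell dropped to 22 or 17.

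Receptor pseudogenes and unrelated genes in the clusters leaned the same way as the receptors on the TMM scale. Of 12 pseudogenes with 5hmC regions 7 rose and 1 fell (median 0.55, and 0.36 with plain library totals). Of 128 genes of other kinds inside the 11 clusters 49 rose and 26 fell (38.3% and 20.3%, median 0.15), and with plain library totals 20 rose and 40 fell (median −0.05). Without undifferentiated replicate 1, 16 of these fell. Both groups thus had a larger share of higher calls than all genes (25.7%) on the TMM scale, as the receptors had.

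The odorant signal runs from the receptor through the G protein subunit encoded by GNAL and adenylyl cyclase (ADCY3) to cyclic nucleotide-gated channels and the chloride channel ANO2. Of 24 genes listed for signalling, receptor transport and the odorant response, 20 had 5hmC regions, 8 rose and 2 fell (median 0.18, and −0.02 with plain library totals). Among all genes 25.7% rose and 25.8% fell. ANO2 rose from 396.2 to 531.5 CPM (0.42, SE 0.0650), and the channel subunit gene CNGA4, which lies in the class I cluster, from 7.18 to 10.9 CPM (0.61, SE 0.15). The retinal guanylate cyclase gene GUCY2F (0.64), the transport factor REEP6 (0.51), OMP, the marker of mature olfactory neurons (0.32), the exchanger SLC24A4 (0.31), PDE1C (0.28) and CAMK2A (0.22) also rose. GUCY2D (−0.86) and the G protein beta subunit GNB1 (−0.28) fell. GNAL (−0.03) and ADCY3 (0.04, and −0.16 with plain library totals) did not pass.

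Among 17 tested genes of receptor choice and olfactory neuron identity, 5 rose and 3 fell (median 0.08, and −0.11 with plain library totals). The share that rose is near that of all genes (25.7% higher, 25.8% lower). EMX2 (0.51), NEUROD1 (0.46), LBR (0.42), NHLH1 (0.24) and EBF1 (0.22) rose. LBR encodes the lamin B receptor, whose absence lets heterochromatin gather in the nuclei of olfactory neurons. The heterochromatin protein gene CBX5 (−0.60), the demethylase gene KDM1A (−0.19) and its partner RCOR1 (−0.16) fell. LHX2, a regulator of receptor enhancers, did not pass (0.18, and −0.01 with plain library totals). Other chemoreceptors were fewer. Of 10 taste receptor genes 5 rose, namely TAS2R16 (0.87), TAS2R42 (0.85), TAS2R60 (0.76), TAS1R2 (0.32) and TAS1R1 (0.16, but −0.04 with plain library totals), and TAS2R5 fell (−0.91). Without undifferentiated replicate 2, 3 taste receptor genes rose, and without differentiated replicate 1, 2 did. VN1R4 rose (0.53) and VN1R5 fell (−0.93) among 3 vomeronasal genes, and TAAR1 (0.73) was the single trace amine receptor gene of 4 that passed.

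The 5mC data concern a deposited list cut by the authors' p-value (largest 0.0165), so the genes in it had been chosen for a difference. Their calls describe direction on the TMM scale rather than how many changed. TMM sets the bulk of genes equal, which a list chosen for differences need not meet, so the direction depends on the scaling. Of RefSeq protein-coding receptor genes 10.0% (39 of 390) had a listed 5mC region, against 50.9% of all protein-coding symbols, again not matched for gene length. Class I had 1 of 55, although 31 had a 5hmC region. The 39 genes split into 27 higher and 12 lower in differentiated cells, all past the threshold by edgeR's quasi-likelihood test. Over all listed genes 84.3% passed, 41% higher and 43.2% lower; among 5372 listed genes with 1 region, 47.4% were higher and 52.5% lower. The receptor median was 0.51 and that of all listed genes 0.003. The states did not overlap for 36 of 39 receptor genes (92.3%), against 77.8% of all listed genes. With 1 region only, it was 30 of 33 receptor genes (90.9%), against 84.9% of all such listed genes. Under plain library totals the median of all listed genes was −0.31 and 6 receptor genes were higher and 12 lower (median 0.20). As regions, 27 of 50 rose and 13 fell with p adjusted over the 328588 tests that the authors' p-values imply, where 72.7% of listed regions passed, 35.7% higher and 37.1% lower. Both receptor region counts fell whichever library was left out. They were 18 and 7 without undifferentiated replicate 1, 14 and 9 without undifferentiated replicate 2, and 12 and 7 without undifferentiated replicate 3. They were 16 and 8 without differentiated replicate 1, and 14 and 7 without differentiated replicate 2.

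By position, the higher 5mC calls gathered on chromosomes 1 and 7. In the distal chromosome 1 cluster 9 of 10 genes were higher and 1 lower, and OR2T1 held most of the summed level. The single region of OR2L2 is also a region of OR2L13, so these genes share counts. Taken as a region it did not pass edgeR's quasi-likelihood test (adjusted p = 0.0792). The other genes of the chromosome had a median of −0.27, but of the other listed regions inside the span 40% were higher and 26.7% lower (median 0.40). The cluster's receptor regions held 414.2, 404.5 and 376.0 CPM before and 543.6, 564.4 and 570.8 CPM after. On chromosome 7 (142748601 to 144016000) all 4 genes of the cluster were higher, from 101.1 ± 2.54 to 145.7 ± 12.5 CPM, and so were 8 of 11 other genes of the span. OR2A1 and OR2A42, near-identical copies there, share 1 region, so their values are the same counts and their assignment is uncertain. Family OR2 holds most genes of both clusters, though not OR14A16 on chromosome 1, and has members elsewhere. It had 14 of 18 genes higher and 4 lower (median 0.51, and 3 higher and 4 lower with plain library totals). Of these 18 genes, 2 were lower without undifferentiated replicate 3 or without differentiated replicate 1. All 3 OR11 genes were lower (median −0.63). On chromosome 11, 5 were higher and 5 lower.

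OR2T1 again had the densest signal. Its 400-base 5mC region (chr1:248567401-248567800) held 730, 665 and 630 counts in undifferentiated and 1105, 999 and 1206 counts in differentiated libraries. On the CPM scale this was 232.1, 235.9 and 214.0 against 304.3, 336.4 and 338.1 (log2 fold change 0.52, SE 0.0485, adjusted p = 4.43e-16), and per kilobase the mean was 692 CPM, against a receptor median of 18.7. OR1A1, a receptor of citronellal and related floral aldehydes (chr17:3119401-3120000, over the gene start), had 3.50, 4.97 and 7.81 CPM before and 9.36, 9.76 and 9.81 CPM after (0.83, SE 0.262, adjusted p = 0.00356). The lowest differentiated library was above the highest undifferentiated one. OR2T12 (0.83), OR5D18 (0.80), OR14A16 (0.76), OR8S1 (0.72), OR2L2 (0.69), OR4E2 (0.61), OR2M4 (0.59), OR2T2 (0.59) and OR56A5 (0.59), the single class I gene, were also higher. OR2A7 (0.51) and OR2B11 (0.53) were among the 5 highest in level. The lower genes were led by OR4D5 (−0.80), OR9Q1 (−0.76), OR1B1 (−0.70), OR6Q1 (−0.66), OR11H12 (−0.66), OR2D3 (−0.64), OR11H2 (−0.63), OR2AG1 (−0.61), OR2T35 (−0.61) and OR4D1 (−0.59). At OR11H12 the states overlapped. Taken as a region, the single one of OR2AG1 did not pass edgeR's quasi-likelihood test (adjusted p = 0.0535). The 4 listed regions of OR9Q1 all leaned down, from −1.19 to −0.65, and 1 of them is also that of OR6Q1.

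Around the receptors, 32 of 60 other genes in the clusters were higher in 5mC and 18 lower (median 0.25), and 4 of 5 receptor pseudogenes were higher and 1 lower. Of the listed signalling and transport genes 10 of 16 were higher and 5 lower (1 and 6 with plain library totals, and 3 lower without differentiated replicate 2). Of the receptor choice genes 5 of 13 were higher and 6 lower, of the taste receptors 2 of 4 higher and 2 lower, and of the vomeronasal receptors 2 of 3 higher and 1 lower. Beside these counts, 41% of all listed genes were higher and 43.2% lower. No trace amine receptor or globin gene had a listed region.

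Listed 5mC regions of receptor genes overlapped a 5hmC region in 19 of 50 cases (38%), against 67.8% of all listed regions, a difference that was not tested. The marks were captured from the same DNA preparations, so their values are given side by side. OR2D3 had the same interval in both marks (chr11:6937801-6938600), and it fell in both (5hmC −0.65, 5mC −0.64). Its 5hmC level was 6.42, 6.09 and 9.58 CPM before and 5.82, 3.88 and 4.01 CPM after. Its 5mC level was 16.85, 17.03 and 19.36 CPM before and 8.54, 15.2 and 10.9 CPM after. OR4D5 (−0.73 and −0.80), OR6Q1 (−0.80 and −0.66), OR11H2 (−0.40 and −0.63) and OR2AE1 (−0.31 and −0.32) were lower in 5hmC and in 5mC. OR2T12 (0.74 and 0.83), OR2T1 (0.35 and 0.52), OR8U8 (0.27 and 0.52) and OR2L13 (0.20 and 0.36) were higher in both. The sums of OR8U8 and OR2L13 mix directions. In 5mC, 2 of the 6 OR8U8 regions were higher and 1 lower, from −1.53 to 0.85. Of the 4 OR2L13 regions in 5mC, 1 was higher and 1 lower, from −1.08 to 0.63.

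Of the genes that passed in both marks, OR1F1 and OR4D1 had changes of opposite sign. OR1F1 had a 3000-base 5mC region (chr16:3246401-3249400) with 41.0, 40.4 and 41.1 CPM before and 55.4, 60.6 and 52.4 CPM after (0.45, SE 0.102). Its 400-base 5hmC region ends at the same base and fell (−1.23). OR4D1 rose in 5hmC (0.92, SE 0.221), in a region 4116 bases upstream of the start, and fell in 5mC (−0.59, SE 0.249), in a region over its start (chr17:56233401-56234000). The OR4D1 values thus come from separate places, and the 5mC region alone did not pass (adjusted p = 0.0704). Of the other 14 genes with both marks, which passed in 5mC alone, 5hmC changes ran from −0.32 (OR7E24) to 0.73 (OR5D18). Their sign was opposite to that of 5mC at OR1B1 (5hmC 0.45, 5mC −0.70), OR2T35 (0.38 and −0.61), OR7E24 (−0.32 and 0.51), OR6S1 (−0.19 and 0.47) and OR2A7 (−0.01 and 0.51).

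**Figure D5:**
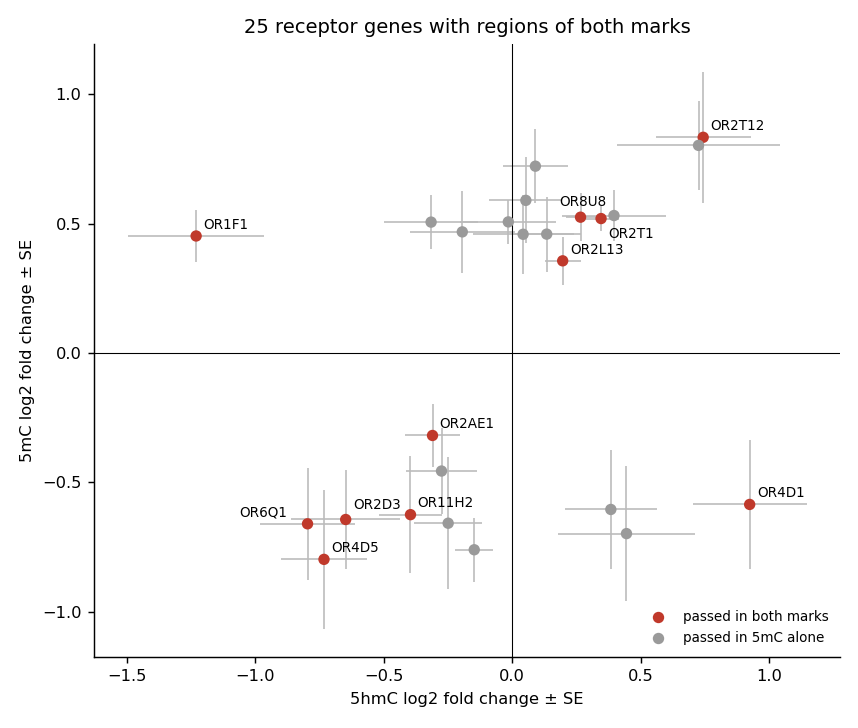
Log2 fold change (differentiated over undifferentiated, TMM scale) in 5hmC and in the selected 5mC list, each with its SE, for 25 receptor genes with regions of both marks. The named genes passed in both marks; OR1F1 and OR4D1 lie in the quadrants of opposite sign, and OR2L13 is at −0.00247 in 5hmC with TMM on strong regions.

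Of 12 receptor genes named for a well-known ligand or site outside the nose, OR51E1, OR51E2, OR51B5 and OR2AT4 had a 5hmC region and OR1A1 a 5mC region. No region was assigned to OR1D2, OR7D4, OR2J3, OR6A2, OR5A1, OR2W3 and OR10J5 in either table, so nothing was measured for these genes here.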

How the data were processed

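Per the submitters' processing notes, BWA, SAMtools 0.1.18, bedtools 2.17.0, SICER 1.1 and edgeR 2.11 were used with hg19 (GRCh37). The sources used here do not state whether enriched regions were called per library or on pooled libraries. The authors deposited raw read counts per region and library for each mark, with a log2 fold change (undifferentiated over differentiated), a mean log2 CPM, a p-value and an adjusted p-value per region. Of these, the authors' deposited p-values were used only to find where the 5mC list ends. Distances to genes, gene starts and CpG islands are in bases, per the file headers.

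Counts of regions with a receptor symbol in the gene body (distance 0) or up to 5000 bases upstream of a start were summed per gene. Regions with a blank count (18) and symbols that a spreadsheet had turned into dates (786 5hmC and 136 5mC regions) were left out. Every gene or region of a table was fitted in R 4.3.3 with edgeR 4.0.16 (filterByExpr, TMM, quasi-likelihood F test, Benjamini-Hochberg, threshold 0.05, 3 libraries per state). DESeq2 1.42.0 was an alternative, and the scripts were tested on simulated data. The SE is the absolute log2 fold change over the square root of F. For 5mC regions the adjustment ran over 328588 implied tests, and p-values of 5mC genes carry no correction for the selection. Gene and region values use separate scalings. Clusters joined receptor regions up to 1 Mb apart. Named genes were the 10 largest changes in each direction, the 5 highest levels, up to 10 genes called in both marks and 12 well-known receptors. For the other lists, all called genes were named, in 5hmC. Other members named were chosen after their values were seen, as were the printed promoters. The members and lists were chosen with earlier results of these data known.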

Additional observations from a re-analysis of the deposited data

How the results depend on the processing

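Scaling decided the split of calls. With plain library totals 36 receptor genes were higher and 39 lower in 5hmC (median −0.0300) and 6 and 12 in 5mC (median 0.196), and 58 and 78 5hmC regions and 3 higher 5mC regions were called. With TMM on strong regions the 5hmC genes were 36 and 43 (median −0.0360), and 3 5mC genes were higher (median 0.169). The regions were not fitted under that scaling. Gene body regions alone left fewer genes to test and gave 9 higher and 1 lower in 5hmC (median 0.364) and 15 and 2 in 5mC. DESeq2's Wald test gave 53 and 8 5hmC regions, 4 lower 5mC genes, and 1 higher and 0 lower 5mC regions, where 41 of 50 had an unadjusted p under 0.05 and edgeR called 27 and 13.

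Leaving out 1 library at a time gave 40 to 61 higher and 13 to 27 lower 5hmC genes (median 0.111 to 0.196), 63 to 91 higher and 17 to 44 lower 5hmC regions, 25 to 27 higher and 8 to 11 lower 5mC genes (median 0.456 to 0.495), and 12 to 19 higher and 7 to 9 lower 5mC regions. Without undifferentiated replicate 1 or differentiated replicate 3, 22 and 17 5hmC regions were lower. The 5mC region counts were lowest without undifferentiated replicate 3. Equal replicate numbers did not pair the samples (correlations of same-numbered deviations −0.006, −0.16 and −0.181 in 5hmC and 0.015, −0.002 and −0.009 in 5mC). A replicate block gave 50 higher and 17 lower 5hmC genes and 27 and 12 in 5mC.

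Turned signs, the cause of which was not tested beyond the scaling itself, were OR2L13 (−0.00247, TMM on strong regions) and OR51E1 (−0.0297 with totals, −0.0277 with TMM on strong regions) in 5hmC. With totals the receptor sums turned on chromosomes 12 (−0.148), 14 (−0.142), 17 (−0.0884) and 19 (−0.00437) in 5hmC and on chromosome 11 (−0.148) in 5mC. So did the clusters on chromosome 11 from 55.43 Mb (−0.00155) and 123.81 Mb (−0.21), chromosome 14 (−0.142) and chromosome 19 from 9.20 Mb (−0.106). Joining over at most 0.5 Mb splits the chromosome 19 cluster from 14.91 Mb, and 1 piece was at −0.0591. It also shortened the chromosome 7 cluster (ratio 0.335 to 0.125) and the chromosome 1 cluster from 158392801 (0.219 to 0.155), whose states then overlapped, and on chromosome 14 it moved the ratio from 0.0657 to 0.185 and the gene median from −0.182 to 0.524. Of 62 gene results named by rule, 29 kept direction and side of the threshold under every alternative run.

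The limits are depth and design: receptor genes held as few as 2 counts in a library, each state has 3 libraries, and no input library was used.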
